A study of Mus musculus with 3 samples.

Results

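The nuclear genes for subunits of respiratory complexes II to V and for cytochrome c were followed at their poly(A) sites in mouse embryonic stem (ES) cells. The set was taken from a list of gene symbols by a rule that uses no measured value, but with earlier results of these data known. It holds 39 of 19290 autosomal protein-coding genes of the annotation. It has 4 genes of complex II, 9 of complex III, 10 of complex IV, 15 of complex V and the cytochrome c gene Cycs. Sites belonged to a gene when they lay on its strand between its start and 1000 bases past its end.

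Poly(A) site sequencing captures transcript ends, and 1 read marks 1 place of cleavage and polyadenylation. All data came from F121-9, a hybrid ES cell line of a cross between the CAST and 129 strains. The 1 group held 3 libraries, named biological replicates 1, 2 and 3, each from passage 14 and from 500 ng of RNA. No treatment, other genotype or other time was available for a contrast, and since no separate cultures are named in the labels, part of the spread over replicates may be technical.

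The respiratory chain sits in the inner mitochondrial membrane. Complex II oxidises succinate and is also an enzyme of the citric acid cycle, complex III passes electrons to cytochrome c, complex IV passes them on to oxygen, and complex V (ATP synthase) uses the resulting proton gradient to make ATP. Complexes III, IV and V combine nuclear subunits with subunits encoded in mitochondrial DNA, whereas complex II is encoded in the nucleus alone. ES cells in culture are known for a strong use of glycolysis beside respiration.

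The 3 libraries had 11085428, 14855484 and 14064461 reads in the denominator of the deposited RPM, the reads at a site scaled to the total of its library. Between 91.0% and 92.7% of these reads lay at the 178115 listed sites. Replicate 3 listed only 216 reads off the 19 autosomes, against 821582 and 1012989 in replicates 1 and 2. All members are autosomal. Of 8 ES cell markers, 7 reached 10 RPM, led by Nanog, Tfcp2l1 and Sox2 at means of 723, 631 and 611 RPM, while Dppa5a was at 0.314 RPM. Of 8 markers of feeder fibroblasts, Thy1 was at 81.3, 48.9 and 123 RPM in replicates 1, 2 and 3, and the other 7 did not exceed a mean of 2.27 RPM.

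Most transcripts of the set ended at a single place, a short distance after the stop codon, with a canonical poly(A) signal. The 30 bases before the most used site are shown for the 3 genes with the highest levels, for the genes of ATP synthase subunit c, which make the same mature protein, and for other members that carry the variant ATTAAA. They are written 5′ to 3′ from the RefSeq genome GRCm38.p6, the build of the files (mm10), with the signal in capitals. In Atp5g1 and Atp5g3 the signal lies farther from the site, so the printed window ends 7 and 12 bases before it.
Atp5b, chr10:128090243-128090272, plus strand: ttaaagttttcAATAAAgtatatacccctc
Cox6c, chr15:35931975-35932004, minus strand: tcAATAAAcagtaattatatggacagtaag
Cox5a, chr9:57532395-57532424, plus strand: actttAATAAAgggaaatgagtttgaactg
Atp5g1, chr11:96072996-96073025, minus strand: cATTAAAcaacaacaacaacaacaacaacg
Atp5g2, chr15:102662860-102662889, minus strand: gacaAATAAAtactgtattaataagatgtt
Atp5g3, chr2:73908438-73908467, minus strand: cATTAAAgatgaaaactttaattcttgctg
Atp5d, chr10:80145789-80145818, plus strand: gtctccATTAAAcaccaggaaccaactgag
Uqcr11, chr10:80402998-80403027, minus strand: gcagcATTAAAccttattcttatgccttgg

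The members were among the more abundant transcripts of these cells. A gene's level was its RPM summed over exonic and downstream sites. Because each read marks a transcript end, levels were compared between genes without division by length. The median level over the 39 members was 270.4, 299 and 322 RPM in replicates 1, 2 and 3. Over the 11178 genes with at least 50 reads it was 18.5, 19.5 and 21.4 RPM. Of the 39 members, 36 met that minimum. A mean of at least 10 RPM was reached by 35 of 39 members and by 52.1% of the 14142 genes with a level. At least 100 RPM was reached by 30 members and 11.3% of genes, and at least 1000 RPM by 5 members and 0.530% of genes. Together the members took 1.88% ± 0.0283 (SD, n = 3) of the listed autosomal reads. In bulk RNA, fewer cells with a transcript and less of it per cell cannot be told apart.

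Libraries differed little for these genes. The coefficient of variation over replicates had a median of 10.2% for the 30 members at 100 RPM or more and 10.9% for the 1595 genes at that level. Replicate 3 held the highest value in 21 of 39 members. After scaling to the reads on the autosomes it did so in 14. The median log2 ratio of replicate 3 over replicate 1 was 0.16 over the members and 0.19 over all genes, so the members followed the offset of that library.

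**Figure D1:**
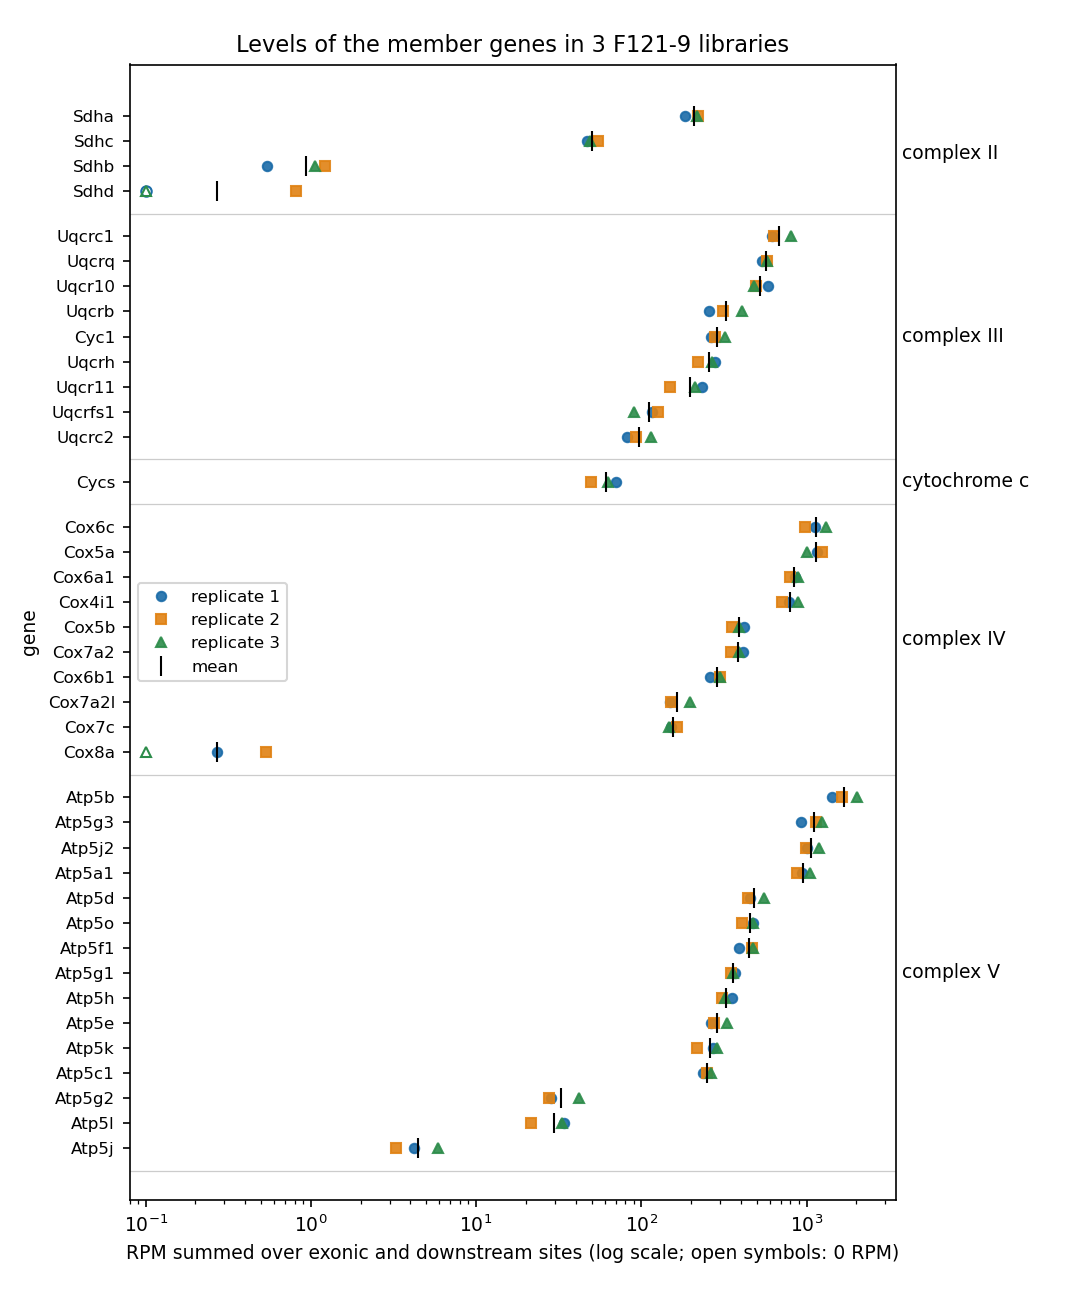
Level of each of the 39 genes in the 3 libraries, in RPM on a log scale, grouped by complex and ordered by the mean (black tick); open symbols mark 0 RPM. Most genes lie between 100 and 1000 RPM with little spread, and Sdhb, Sdhd, Cox8a and Atp5j lie below 10 RPM.

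Complex II had the lowest levels of the complexes. Sdha, the flavoprotein subunit that oxidises succinate, was at 184, 219.5 and 219 RPM in replicates 1, 2 and 3. Sdhc, one of the membrane anchors, was at 46.7, 54.8 and 48.8 RPM. The ranges of these genes did not overlap. Sdhb, the iron-sulfur subunit, was at 0.541, 1.21 and 1.07 RPM, and Sdhd, the other membrane anchor, at 0, 0.808 and 0 RPM. Both lay below the lowest value of Sdhc in every library, although all 4 subunits are parts of 1 enzyme.

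The low values of Sdhb and Sdhd count listed sites and do not measure whether the mRNA was made. Neither gene had a listed site within 30 bases of the annotated end of a protein-coding transcript. Sdhb had 1 read, in replicate 3, at a site 56 bases after the stop codon. The most read site of Sdhb lay in an intron at position 140975330 of chromosome 4, with 2.89, 1.48 and 1.71 RPM and 66.7% of the reads in the gene's window. Sdhd had 2 listed sites, both read only in replicate 2, of which the intronic one held 45.5% of the reads. The 100 bases before the annotated ends of Sdhb and Sdhd had no near-identical copy elsewhere in the genome.

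In complex III all 9 genes were well read. Uqcrc1, a core subunit, was at 619, 636 and 800.4 RPM, and Uqcrq, a small subunit, at 537, 579.9 and 578 RPM. Uqcr10, another small subunit, was at 584, 492 and 483 RPM. Uqcrc1 was the highest of the complex in every library, and the ranges of Uqcrq and Uqcr10 overlapped. Uqcrb was at 256, 311 and 406 RPM, and Cyc1, the heme-bearing cytochrome c1, at 265, 279 and 319 RPM. Uqcrh, the hinge protein, was at 281, 221 and 269 RPM. These 3 genes overlapped. Uqcr11 was at 232, 148 and 212 RPM. Uqcrfs1, the Rieske iron-sulfur protein, was at 116, 127 and 90.7 RPM, and Uqcrc2, the partner of Uqcrc1 in the core, at 82.1, 92.5 and 114 RPM. Uqcrc2 lay below Uqcrc1 in every library, with means of 96.2 ± 16.3 and 685 ± 100.2 RPM (SD, n = 3).

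Cycs, the somatic cytochrome c, the mobile carrier between complexes III and IV, was at 70.3, 49.6 and 62.9 RPM. Its values lay below those of Cyc1 and of 9 of the 10 genes of complex IV in every library. Cycs has 1 near-identical copy elsewhere in the genome and Cyc1 has none, so the level of Cycs is uncertain.

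Complex IV had 4 of the 10 highest members. Cox6c was at 1130.04, 984.6 and 1312 RPM, Cox5a at 1151, 1241 and 1013 RPM and Cox6a1 at 848, 794 and 889 RPM. Cox4i1, the ubiquitous form of subunit 4, was at 787, 706 and 888 RPM. Cox6c and Cox5a overlapped each other, as did Cox6a1 and Cox4i1, and the first pair lay above the second in every library. Cox5b was at 419, 355 and 391 RPM, Cox6b1 at 262, 299 and 300.3 RPM, and Cox7c at 150.5, 165 and 148 RPM. These are further nuclear subunits around the catalytic core, and their ranges did not overlap one another.

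The related genes Cox7a2 and Cox7a2l differed in level. Cox7a2, the ubiquitous form of subunit 7a, was at 415, 349 and 388 RPM. Cox7a2l, known as a factor that joins complexes III and IV into supercomplexes, was at 148, 151 and 197 RPM, below Cox7a2 in every library.

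Cox8a, the ubiquitous form of subunit 8, stood apart from the rest of complex IV. Its exonic level was 0.271, 0.539 and 0 RPM. An intronic site at position 7216020 of chromosome 19 held 89.7% of the reads in its window, at 0.812, 2.83 and 3.20 RPM. The 20 bases after that intronic site were A-rich, with a run of 6 A or 12 A in any order, a place where a primer can bind inside a transcript. At the annotated end of Cox8a the last 100 bases had 2 near-identical copies elsewhere, which held 1.12 RPM, so its value is uncertain.

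Complex V held the highest member, Atp5b, the catalytic beta subunit, at 1429.8, 1638 and 2011 RPM. It was above every other member in every library, and its lowest value was above the highest value of any other. Atp5a1, the alpha subunit that alternates with beta in the catalytic head, was at 933, 882 and 1051 RPM. Atp5g3 was at 931, 1134 and 1245 RPM and Atp5j2, subunit f, at 1007, 994 and 1184 RPM. Those 3 genes overlapped.

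The stalk and peripheral subunits of ATP synthase lay lower. Among the central stalk genes, Atp5d (delta) was at 458, 440.1 and 551 RPM, Atp5e (epsilon) at 263, 274 and 329.9 RPM and Atp5c1 (gamma) at 238, 248 and 263 RPM. Atp5d lay above the other central stalk genes in every library. Among the peripheral stalk genes, Atp5o (OSCP) was at 473, 409 and 476 RPM, Atp5f1 (subunit b) at 393, 467 and 477 RPM and Atp5h (subunit d) at 355, 307 and 322 RPM. Atp5o and Atp5f1 overlapped and both lay above Atp5h in every library. Atp5k (subunit e) was at 270.4, 217.5 and 289 RPM and Atp5l (subunit g) at 34.3, 21.5 and 33.3 RPM. Atp5j (coupling factor F6) was the lowest of the complex, at 4.24, 3.30 and 5.90 RPM. Atp5l has 2 near-identical copies elsewhere in the genome and Atp5j has 1, so the levels of both are uncertain. Atp5c1, Atp5o and Atp5h, read at higher levels, also have copies.

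The 3 genes for subunit c, which forms the rotating ring, were unequal. Atp5g3 gave 69.9%, 75.0% and 75.7% of their summed reads in replicates 1, 2 and 3, Atp5g1 gave 27.9%, 23.2% and 21.8%, and Atp5g2 gave 2.15%, 1.83% and 2.54%. The order was the same in every library and the shares did not overlap. In RPM, Atp5g1 was at 372, 351 and 359 and Atp5g2 at 28.6, 27.7 and 41.7. Of these genes, Atp5g1 and Atp5g2 have 2 and 4 near-identical copies elsewhere in the genome, and Atp5g3 has none.

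Copies were looked for in the members only, so no share over all genes stands beside these counts. The last 100 bases before the most used site (before the annotated end for the 3 genes under 50 reads) matched another place over at least 90 bases at 95% identity in 18 of 39 members, with 30 copies in all. Copies of 11 of these genes held listed reads, at most 1.91 RPM, for Atp5g1. The median level was 292 RPM over the 18 members with a copy and 289 RPM over the 21 without. These medians do not show the low end. Of the lowest members, Cycs, Atp5g2, Atp5l, Atp5j and Cox8a have a copy, at means of 60.9, 32.7, 29.7, 4.48 and 0.270 RPM. Sdhc, Sdhb and Sdhd have none, at means of 50.1, 0.940 and 0.269 RPM. Whether copies lowered any level was not tested. How reads that fit several places were treated is not given in the sources used here, so levels of genes with copies are uncertain.

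Reads of the members fell almost wholly into terminal exons. Their windows held 225 listed sites, of which 143 lay in terminal exons, 27 in other exons, 38 in introns and 17 downstream. Terminal exons held 99.76% of the reads and introns 0.0722%, against 96.6% and 1.48% over all coding genes. Of the sites, 86 were read in every library, 36 in 2 and 103 in 1.

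Site use was concentrated. At least 50 reads over the libraries were found for 36 members, which are the ones described from here on, and the other 3 were Sdhb, Sdhd and Cox8a. A single site of at least 5% of the gene's reads was found in 28 of these 36 genes, against 45.4% of the 11178 genes with 50 reads and 59.7% of those at 100 RPM or more. The most used site took at least 90% of the reads in 30 of 36 members, against 48.9% and 64.2%. Its median share was 99.4% ± 0.136 (SD, n = 3) over the members. Uqcrc1 had 1 listed site in all.

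**Figure D2:**
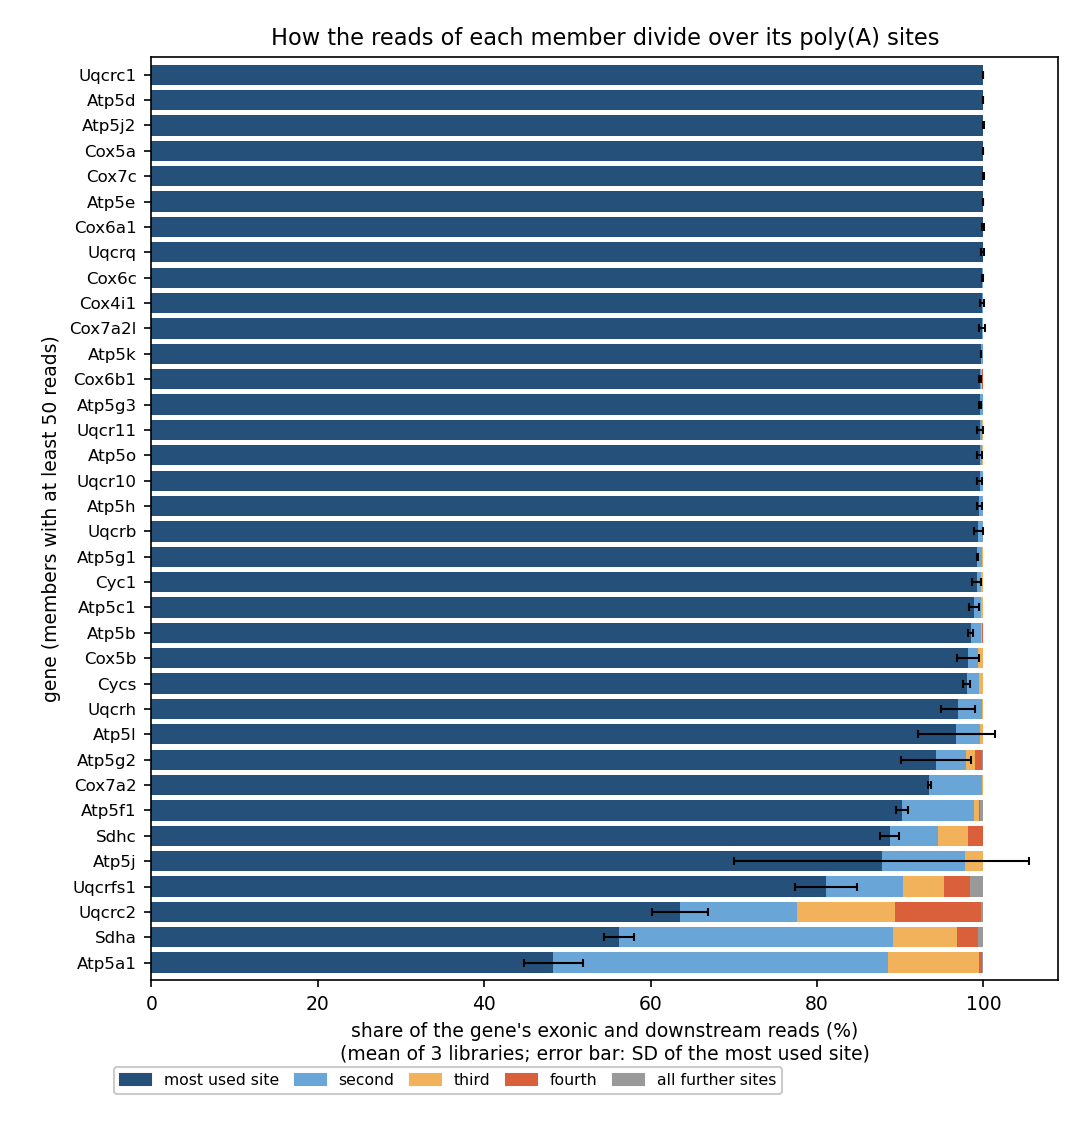
Share of each gene's exonic and downstream reads at its most used site (dark blue, with the SD over 3 libraries) and at further sites, in percent, for the 36 members with at least 50 reads. The most used site takes over 90% in 30 genes, and Atp5a1, Sdha and Uqcrc2 divide their reads most.

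By the deposited hexamers, which lie up to 60 bases before the site, every most used site carried one of the main poly(A) signals that the cleavage machinery recognises. AATAAA was found in 31 of 36 members. The other 5, Atp5g1, Atp5g3, Atp5d, Uqcr11 and Sdhc, had ATTAAA. Over all genes with 50 reads the shares were 66.1% for AATAAA, 15.8% for ATTAAA, 13.9% for other hexamers and 4.18% for none. AATAAA stood at 71.6% of genes at 100 RPM or more and at 26 of the 30 members at that level.

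The place of the signal varied among members. Counting the site's own base as 1, AATAAA began at a median of 24 bases before the site in members and 22 in all genes. In Uqcrb, Uqcrc2, Atp5l and Cycs it began 41, 41, 44 and 59 bases before the site, and a search limited to 40 bases found AATAAA in 27 members and ATTAAA in 5. It found neither in 4 of 36 (11.1%), Atp5g3, Atp5l, Uqcrb and Uqcrc2, against 20.3% of all genes with 50 reads. In Cycs an ATTAAA lies nearer, 22 bases before the site, shown here in capitals in the 30 bases before it.
Cycs, chr6:50564433-50564462, minus strand: agaagataATTAAAacaaccacagatcgtg

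Several other sequence features differed little from all genes. The letters TGTGT stood in the 40 bases after the site, on the gene's strand, in 16.7% of members and 20.7% of all genes. The letters TGTA stood in the 100 bases before the site in 52.8% and 54.5%. The median share of T in the 40 bases after the site was 37.5% in both, and the median GC content of the 100 bases before it was 40.5% and 37%. An A-rich stretch followed the site in 0 of 36 members and in 1.21% of all genes. The listed width of the most used site was larger, with a median of 31 bases in members and 20 bases in all genes, whose upper quartile was 29 bases. Members were read at higher levels than most genes, and whether the width follows the number of reads was not tested.

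The 3′ untranslated regions in use were short. The distance from the stop codon to the most used site had a median of 151.5 bases over the 36 members, with quartiles of 127 and 193 bases. It had a median of 664 bases over 10861 genes with 50 reads and a stop codon in the annotated transcript, and of 394.5 bases over those at 100 RPM or more. Under 200 bases were found in 27 of 36 members and in 18.1% of genes. The shortest were Atp5h with 57 bases and Atp5o and Atp5k with 58 each. The longest were Sdha with 833, Cycs with 804, Cox7a2l with 684 and Sdhc with 636 bases, followed by Uqcrfs1 with 293. Both well-read genes of complex II were thus among the 4 members above 600 bases.

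**Figure D3:**
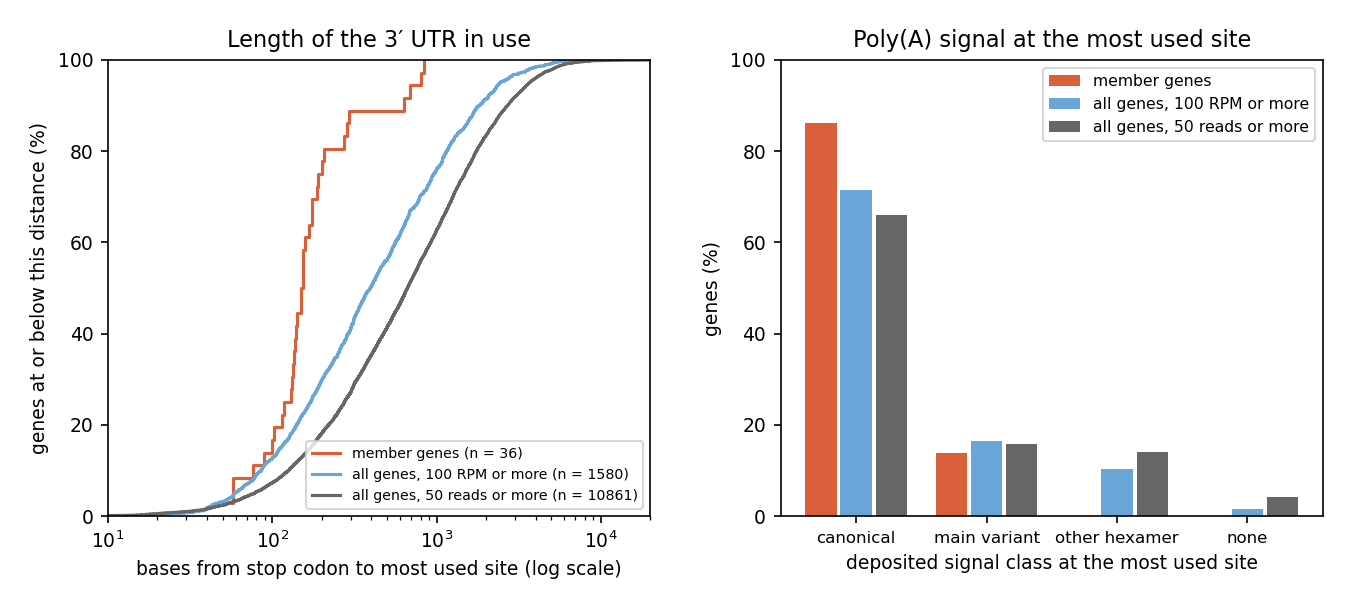
Left, cumulative share of genes (percent) against the distance from stop codon to most used site in bases (log scale), for members, for genes at 100 RPM or more and for genes with 50 reads; right, share of genes by poly(A) signal at that site (canonical: AATAAA; main variant: ATTAAA). The curve of the members rises most between 100 and 300 bases, where it lies left of both others, and by the deposited hexamers no member has another hexamer or none.

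Only 8 of the 36 members had a second terminal exon site of at least 5% of reads, and their most distal and most proximal such sites were compared within each library. A terminal exon was the last exon of any annotated transcript of the gene, so the 2 sites need not share an exon. A gene was called when its ratio was at least 2-fold at a Benjamini-Hochberg adjusted p under 0.05 in limma, fitted over all 5776 genes with such a pair. The distal site was higher in 4 of the 8 members, Sdha, Sdhc, Atp5a1 and Atp5f1, against 32.4% of all genes tested. The proximal site was higher in 1, Cox7a2, against 13.0% of all genes tested. Ratios were on the log2(RPM + 0.05) scale, which understates differences of rarely used sites. The median log2 ratio over all genes tested was 1.38, but 0.51 after TMM scaling of the site columns, which called 1135 genes distal and 1108 proximal, and 0.78 with a site minimum of 10%.

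The sites of these genes, except Atp5a1 and Atp5j, are numbered by their use, site 1 being the most used. The signal is in capitals, to compare the signals that go with much and with little use. Where a window ends before the site, it ends 8 (Atp5f1), 12 (Uqcrc2) or 9 (Uqcrfs1) bases before it.
Sdha site 1, chr13:74322254-74322283, minus strand: tgtaagccaAATAAAccctttctcaaagtt
Sdha site 2, chr13:74322816-74322845, minus strand: ttatttccaAATAAAaccatgtagtagtgg
Sdha site 3, chr13:74322866-74322895, minus strand: cagtGATAAAactggcataattcttaagtg
Sdhc site 1, chr1:171129165-171129194, minus strand: tttggaaacgATTAAAgtactactcatttt
Sdhc site 2, chr1:171129269-171129298, minus strand: ggaagatcaaaaaaaattgtattaagtttc
Cox7a2 site 1, chr9:79755408-79755437, minus strand: taactgctgccAATAAAgcaatccttaacc
Cox7a2 site 2, chr9:79755362-79755391, minus strand: ttcacttgagAATAAAttcctggtaatacc
Atp5f1 site 1, chr3:105942700-105942729, minus strand: aagcatcttgcAATAAAatgtttgaaacag
Atp5f1 site 2, chr3:105942870-105942899, minus strand: aAATAAAatgatcaaggtccacttagtggc
Uqcrc2 site 1, chr7:120659254-120659283, plus strand: cAATAAAgcattgtgtgtaaatgttcttct
Uqcrc2 site 2, chr7:120659497-120659526, plus strand: cccatgtacAGTAAAcctgcgtttctgaag
Uqcrc2 site 3, chr7:120659198-120659227, plus strand: atgaAGTAAAaaaaaaaaaaacttaaaagc
Uqcrc2 site 4, chr7:120659450-120659479, plus strand: tttttaaAATAAAaacaactttaacacttg
Uqcrfs1 site 1, chr13:30540447-30540476, minus strand: tAATAAAacattacagattgttgtattggt
Uqcrfs1 site 2, chr13:30540310-30540339, minus strand: gttttgatATTAAAcctttcacagttatgg
Uqcrfs1 site 3, chr13:30540528-30540557, minus strand: attagcatAATAAAaccactgttgaacatc

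The sites of Sdha spread over 612 bases. The distal site had 107, 122 and 119.9 RPM, the middle one 61.3, 70.5 and 72.4 RPM and the proximal one 9.92, 21.9 and 17.0 RPM in replicates 1, 2 and 3. The order was the same in every library without overlap. The shares were 56.3% ± 1.81, 32.8% ± 0.632 and 7.72% ± 2.30 (SD, n = 3). Both abundant sites carry AATAAA and the weak one GATAAA. The distal site was higher than the proximal one by 2.91 on the log2 scale (SE 0.25, limma adjusted p = 9.0e-09). Against the middle site, the second most used, the log2 ratio was 0.78, under 2-fold.

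Sdhc used its distal site at 40.9, 48.9 and 43.7 RPM and the proximal one, 104 bases upstream, at 1.53, 4.64 and 2.70 RPM. The log2 ratio was 4.02 (SE 0.45, limma adjusted p = 2.8e-07), and the distal site was higher in 3 of 3 libraries. The distal site has ATTAAA and none of the deposited hexamers was listed at the proximal one.

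Atp5f1 used its distal site at 355, 425 and 426 RPM and the proximal one, 162 bases upstream, at 31.0, 38.6 and 46.9 RPM. Distal reads were 91.2% ± 1.00 (SD, n = 3) of the pair, and the log2 ratio was 3.39 (SE 0.18, limma adjusted p = 2.0e-11). Both sites carry AATAAA, at 19 bases before the distal and 37 bases before the proximal site.

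Atp5a1 divided its reads the most. Its middle site had 469, 445 and 465 RPM, the distal site 342, 333 and 487 RPM and the proximal one 120.3, 96.0 and 94.4 RPM. The middle and distal sites overlapped, and only replicate 3 had more distal than middle reads. The proximal site was the lowest in every library. By the deposited hexamers the middle site carries AATAAA, the distal one ATTAAA and the proximal one AACAAA and CATAAA. The log2 ratio of the distal over the proximal site was 1.89 (SE 0.18, limma adjusted p = 3.5e-08). It was 0.91, under 2-fold, after TMM scaling, and limma without a variance trend gave an adjusted p of 0.0558.

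Cox7a2 was the member with higher proximal use. The proximal site had 389, 327 and 362 RPM and the distal one, 46 bases downstream, 26.1, 21.9 and 24.96 RPM. Distal reads were 6.29%, 6.27% and 6.44% of the pair in replicates 1, 2 and 3, the narrowest spread of the 8 genes. The log2 ratio was -3.88 (SE 0.19, limma adjusted p = 5.9e-12). Both sites carry AATAAA, at 19 and 20 bases before the site. With a distance of at least 100 bases required between sites, the gene has no pair and no member was called proximal.

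Uqcrc2 and Uqcrfs1 ended mostly at a site between the outer ones. The most used site of Uqcrc2 had 49.0, 59.9 and 75.4 RPM, while its most distal site had 13.3, 10.7 and 16.4 RPM and its most proximal one 13.3, 12.9 and 6.11 RPM. The outer sites overlapped, and their log2 ratio was 0.38 (SE 0.45, limma adjusted p = 0.50). The most used site lay above both in every library, which its choice as the most used makes likely, so no test is given.

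In Uqcrfs1 the most used site had 98.8, 101.9 and 70.6 RPM, the most distal one 8.48, 12.6 and 9.46 RPM and the most proximal one 3.79, 8.28 and 4.55 RPM. The distal site was higher than the proximal one within each of the 3 libraries, but the difference missed the threshold (log2 ratio 0.93, SE 0.55, limma adjusted p = 0.17). The most used site again lay above both in every library. In both genes the most used site has AATAAA, as does 1 of the lesser sites.

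Atp5j, with 179 reads in all, had its distal site at 4.24, 3.16 and 3.98 RPM. The proximal site, 6698 bases upstream, was at 0, 0 and 1.78 RPM, so it rested on 25 reads of replicate 3. No distance from an annotated stop codon could be given for this proximal site. The pair is thus not shown to lie in the same 3′ untranslated region. The ratio was not called (limma adjusted p = 0.056), and since 2 libraries had 0 proximal reads, the size of the fitted log2 ratio depends on the pseudocount.

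**Figure D4:**
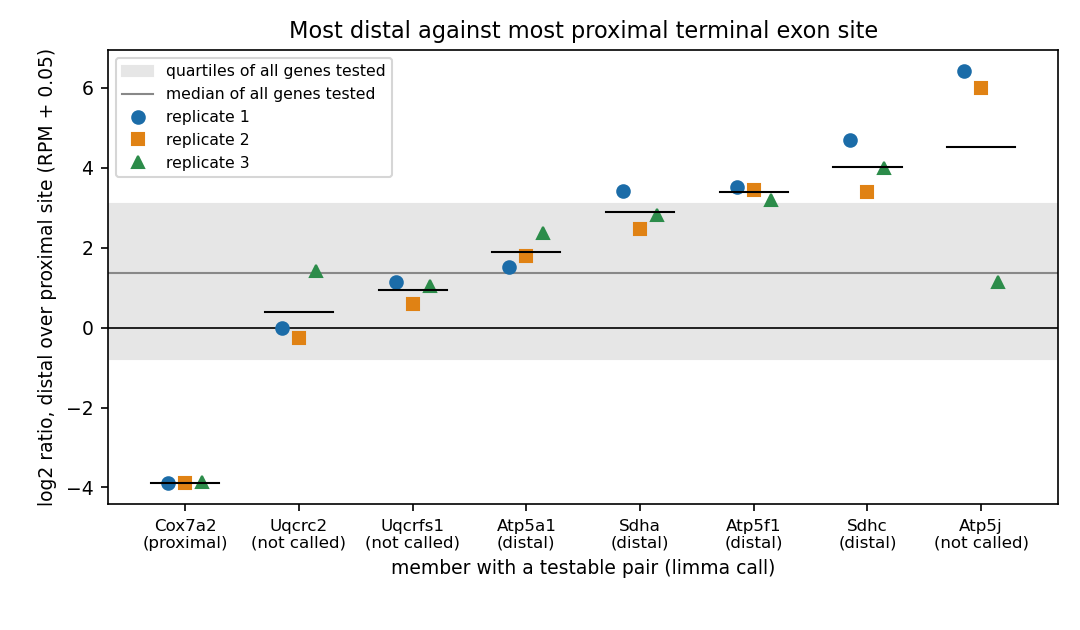
Log2 ratio of RPM + 0.05 at the most distal over the most proximal terminal exon site, per library (symbols) and as the fitted mean (bars), for the 8 members with such a pair; the grey band gives the quartiles of 5776 genes, -0.78 and 3.11, and the grey line their median of 1.38. Cox7a2 lies at -3.88 with almost no spread, and Atp5j has 1 library far below the other 2.

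Genes that assemble, regulate or replace these subunits were mostly read at lower levels than the subunits. Of the assembly factors of complexes II to V, 4 reached 100 RPM, all from the 18 of complex IV. Lrpprc, which stabilises mitochondrial mRNAs, was at 365, 289 and 456 RPM, Coa5 at 117, 138 and 138 RPM, Cox14 at 111, 108 and 120.02 RPM and Coa3 at 102, 99.2 and 122 RPM. Lrpprc lay above the other assembly factors of its list in every library.

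The median levels were 40.9 RPM over the assembly list of complex IV, 59.3 RPM over the 6 genes of complex III, 7.88 RPM over the 4 of complex II and 10.6 RPM over the 3 of complex V. The highest of these were Uqcc2, Uqcc1, Uqcc3 and Bcs1l for complex III, at means of 78.4, 73.3, 60.6 and 58.0 RPM. Sdhaf4 led complex II at 26.2 RPM and Tmem70 complex V at 31.9 RPM. The mean of each lay below the median of the subunit genes of its complex, except that of Sdhaf4, which was near the complex II median of 25.5 ± 2.24 RPM (SD, n = 3). That median includes Sdhb and Sdhd, whose low values do not measure whether the mRNA was made. Sdhaf4 lay below both Sdha and Sdhc in every library.

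Of 8 isoforms known from muscle, lung or testis, 3 reached 10 RPM. Cox6b2, the testis form of subunit 6b, was at 252, 257 and 319.5 RPM, close to the ubiquitous Cox6b1, with overlapping ranges. Cox7a1, the form of heart and skeletal muscle, was at 69.2, 73.4 and 83.7 RPM, below Cox7a2 in every library, and the testis cytochrome c Cyct was at 10.4, 14.2 and 10.03 RPM. The others were lower, Cox6a2 at a mean of 7.22 RPM being the next, and Cox7b2 had no listed site.

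Of 6 further subunits and associated proteins in the annotation, 5 exceeded 100 RPM. Atp5mpl and Usmg5, small proteins of ATP synthase, were at means of 386 and 343 RPM, and Atpif1, its inhibitor, at 345 RPM. Cox7b lies on X and was read at 359 and 341 RPM in replicates 1 and 2. Of 7 transcription regulators of mitochondrial genes none reached 100 RPM, the highest being Yy1, Tfam, Gabpa and Esrra at 67.3, 55.9, 52.4 and 22.1 RPM.

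Tandem sites of these lists went both ways. Of the 52 genes, 20 had a testable pair, 7 were called distal and 6 proximal, with a median log2 ratio of 0.25, beside the 32.4% and 13.0% called over all genes tested. Among the assembly factors, Coa5 had a log2 ratio of 3.37 (limma adjusted p = 1.4e-09) and Cox14 one of -3.52 (limma adjusted p = 2.8e-09). Uqcc1 had 2.18 and Bcs1l 3.57, and Uqcc3 had -3.26 (limma adjusted p of 3.2e-06, 8.5e-07 and 3.8e-07).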

How the data were processed

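Poly(A) sites of 3 F121-9 libraries were analysed. The deposited value of each site is an RPM made by the authors, and the lists also hold the mean RPM and a fraction of libraries with a read, both deposited by the authors. Alignment to mm10 with GENCODE M21 is stated per the text files deposited with the libraries, and neither the aligner nor the site caller or its region codes is given in the sources used here. Whole reads were recovered from the RPM steps: 100% of values were whole within 0.01 reads. No molecular identifiers are given, so reads may not be independent molecules. Libraries had 10147672, 13513327 and 13040620 reads at listed sites. There were 0 unused columns of sample values.

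Sites were assigned to GENCODE genes by terminal exon, other exon, intron or the 1000 bases downstream. Terminal exons were lengthened by 30 bases, chosen after seeing the data, because the main site of Cox6c lies just past its annotated end. Only autosomes were used for 3 libraries. The symbol Atp5o belongs to a pair of overlapping genes, of which the shorter was taken. Tandem sites needed 5% of the reads of a gene with at least 50 reads, and were tested with limma 3.58.1 (R 4.3.3) on log2(RPM + 0.05) with library as a block. A variance trend was added after a check on simulated data. The edgeR 4.0.16 quasi-likelihood test on recovered reads, an added alternative, called 1537 genes distal and 632 proximal. Copies were found with blastn 2.17.0 against GRCm38.p6.

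The members and lists were chosen with earlier results of these data known. Named genes were the 10 highest and 5 lowest members, the 3 most variable, those with tandem pairs or non-terminal sites, 3 families and up to 4 genes per further list; further members were added after their values were seen.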

Additional observations from a re-analysis of the deposited data

How the results depend on the processing

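Leaving out 1 library in turn gave 4 to 5 of 8 members with higher distal use and 1 with higher proximal use. The added distal member, without replicate 3, was Atp5j. Over all 5776 genes, leaving out 1 library gave 1006 to 1569 distal and 468 to 644 proximal calls, the lowest of each without replicate 2. A site minimum of 10% left a pair in 4 members and 4433 genes. It gave 1 distal and 0 proximal members, and 1033 distal and 526 proximal genes. Atp5f1, Cox7a2 and Sdhc had no pair at that minimum, so they were not tested. A minimum of 1% gave 7 distal and 4 proximal of 13 members, and 3720 and 857 of 7877 genes. The 2 most used sites gave 2 and 3 of 8 members, and 1797 and 784 of 5776 genes. With sites at least 100 bases apart, 4 of 7 members were distal and 0 proximal, against 1630 and 670 of 5178 genes. TMM factors over the 6 columns lowered the median log2 ratio from 1.38 to 0.51 and gave 1135 distal and 1108 proximal genes, against 1869 and 753. Limma without a variance trend, added after seeing the data, gave 992 and 388.

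At the 2 most used sites the log2 ratios of Atp5a1, Uqcrc2 and Uqcrfs1 turned to -0.27, -2.19 and -3.15, by construction, since the middle site then stands as the proximal one. The proximal site of Atp5j had 0 reads in replicates 1 and 2, so the size of its fitted ratio depends on the pseudocount, from 4.52 at 0.05 RPM to 2.36 at 0.5 RPM, and no call is drawn from it. Atp5j is still counted among the distal members without replicate 3 and at a site minimum of 1%, and was also called distal at 0.5 RPM. Sdha fell under 2-fold with a minimum of 10% or the 2 most used sites, at a log2 ratio of 0.78.

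Scaling to autosomal reads raised the median member level from 297 to 341 RPM and moved 25 of 39 levels by more than their SD. The stop codon nearest to the site gave a median distance of 150 bases. Stricter matching (98% identity over 95 bases) left 6 members with a copy. Looser matching (90% identity over 80 bases) added Atp5b, Atp5e, Atp5k, Cox6a1, Cox6b1, Cox7c, Uqcrb and Uqcr10 to the members with a copy. Without the longer terminal exons Cox6c lost its main site, at 1.31 RPM. The median share of the most used site and the 31 members with AATAAA kept their values within the SD, or within 1.5 times, in every alternative run. No paired analysis was possible because there is only 1 group, so replicate numbers pair no samples across groups; the tandem fit itself compared sites within each library.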
